A study of Mus musculus with 8 samples.

Results

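Chemosensory receptor genes are described here from RNA-seq of mouse embryonic stem cells (mESCs) in which the H3K9 methyltransferases SETDB1 and G9a/GLP were removed or inhibited, alone and together. The genes were chosen by their reads: every gene row whose symbol starts with Olfr, Vmn1r, Vmn2r or Taar was taken if its raw counts summed over the 8 libraries reached 20. This left 66 of 1475 receptor rows, out of 24062 gene rows in all. The 66 comprised 32 of 1122 odorant receptor rows (Olfr), 11 of 211 type 1 vomeronasal receptor rows (Vmn1r), 21 of 127 type 2 vomeronasal receptor rows (Vmn2r) and 2 of 15 trace amine-associated receptor rows (Taar). No read was counted in any library for 980 receptor rows (66.4%), namely 787 Olfr, 148 Vmn1r, 39 Vmn2r and 6 Taar rows, and the other 429 had 1 to 19 reads. Among gene rows that are not receptors, 10.3% had no read and 73.0% had 20 or more. The sum over all libraries favours a gene that is high in any of the 4 conditions, so the counts below describe these genes and say nothing of the families as a whole.

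Chemosensory receptors are G protein-coupled receptors encoded by large gene families that lie in clusters on many chromosomes. Odorant receptors and most trace amine-associated receptors act in olfactory sensory neurons of the nose, and each mature neuron selects a single odorant receptor gene from the whole repertoire. Vmn1r and Vmn2r receptors act in neurons of the vomeronasal organ, which detects pheromones and related cues. In cells outside these epithelia the genes are silent as a rule, and in the olfactory lineage the clusters carry methylated H3K9, the histone mark written by the enzymes perturbed here.

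The study compared 4 conditions of mESC line #33-6, a single line that carries a conditional Setdb1 allele, with 2 biological replicates each. WT mESCs were untreated and still carried the undeleted conditional allele. UNC0642-treated mESCs received 2 µM of this G9a/GLP inhibitor over 3 days. For Setdb1 KO mESCs the labels give 800 nM 4-OHT over 5 days, and for UNC0642-treated Setdb1 KO mESCs 2 days of 800 nM 4-OHT followed by 3 days of 2 µM UNC0642. The protocol text and the study's methods give 5 days of 4-OHT for the deletion, without setting the combination apart, so its exposure to 4-OHT is uncertain. By the labels, the 2 KO conditions differ in days of 4-OHT as well as in UNC0642, and the 2 differences cannot be told apart. WT and UNC0642-treated mESCs received no 4-OHT. In every comparison of a KO condition with them, Setdb1 deletion and exposure to 4-OHT therefore cannot be told apart either. All cells were grown on gelatin with LIF. Total counts per library ranged from 11702590 to 26807807, so 3 reads corresponded to between 0.112 and 0.256 per 1e6 counts, which is what a row without a read in a library allows. Setdb1 itself, which encodes the H3K9me3 methyltransferase, was at 170 and 127 CPM (counts per 1e6 TMM-scaled counts) in WT mESCs, 131 and 86.4 with UNC0642, 47.3 and 51.0 after deletion and 61.1 and 34.1 under the combination (the last of the conditions, called combined condition here). Both KO conditions lay below both WT libraries, with log2 fold changes of -1.59 ± 0.44 (SE; edgeR adjusted p = 0.181, 0.0164 when the replicate number was added as a block) and -1.64 ± 0.44 (adjusted p = 0.0746, 0.00593 with the block). For the combined condition against UNC0642 alone the log2 fold change was -1.19 ± 0.43 (adjusted p = 0.387, 0.0437 with the block). These reads cover the whole gene, so they do not measure the deleted part alone.

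Markers of mESCs were high in every library. The summed level of 8 mESC markers, Pou5f1, Sox2 and Nanog among them, was between 2678 and 5426 CPM. The 9 markers of olfactory sensory neurons summed to 27.0 and 38.8 CPM in WT mESCs, 19.98 and 24.3 with UNC0642, 20.9 and 35.5 without Setdb1 and 13.0 and 26.4 under the combination. Both WT libraries lay above the UNC0642 and combined libraries, and the KO libraries overlapped with all others. Of these markers, Cnga2, the olfactory cyclic nucleotide-gated channel, had no read, and Cnga4 and Stoml3 stayed under 0.5 CPM in every library. The 4 vomeronasal neuron markers summed to between 2.60 and 10.4 CPM. The 6 male germ cell markers summed to between 157 and 372 CPM. Of them, Ddx4 and Dazl were higher in both KO conditions (Dazl between 6.01 and 15.3 CPM in the 4 other libraries and between 64.2 and 115 CPM in the 4 KO libraries). Stra8 was between 113 and 282 CPM in the 4 other libraries, 73.1 and 222 in Setdb1 KO mESCs and 28.2 and 107 under the combination, and Prm1, Tnp1 and Acr stayed under 0.5 CPM. The trophoblast list was higher in the KO libraries, at 16.6, 15.02, 13.2 and 8.97 CPM against between 6.62 and 8.91 CPM in the 4 others, mostly through Krt8 (6.14 to 12.8 against 3.29 to 5.63 CPM), while Elf5 stayed under 0.5 CPM. The fibroblast list summed to between 5.38 and 33.6 CPM and the primitive endoderm list to between 7.66 and 42.4 CPM. In every condition the fibroblast markers Col1a1, Col1a2 and Col3a1 were higher in replicate 2 than in replicate 1, and Thy1, Postn and Pdgfra were not. Col1a2 was between 0 and 1.35 CPM in the replicate 1 libraries and between 5.09 and 6.38 CPM in those of replicate 2. The part of any of these cells in the receptor reads was not tested, and in bulk RNA a change in the share of expressing cells and a change in RNA per cell cannot be told apart.

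More receptor genes had reads after loss of Setdb1 than in WT mESCs. At least 1 read was found for 41 and 64 of the 1475 receptor rows in the WT libraries, for 116 and 102 after UNC0642, for 286 and 142 in KO mESCs and for 166 and 271 in the combined condition. The libraries differ in depth, and at the depth of the smallest library the expected numbers were 41.0 and 41.4, 83.3 and 71.7, 189 and 124, and 165 and 201. At equal depth both UNC0642 libraries therefore lay above both WT libraries and below all 4 KO libraries, and the 2 KO conditions overlapped. The 1409 rows outside the list showed the same order, with summed levels of 2.61 and 2.17 CPM in WT mESCs, 7.19 and 3.56 after UNC0642, 19.7 and 9.58 in KO mESCs and 21.4 and 19.9 CPM in the combined condition.

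**Figure D1:**
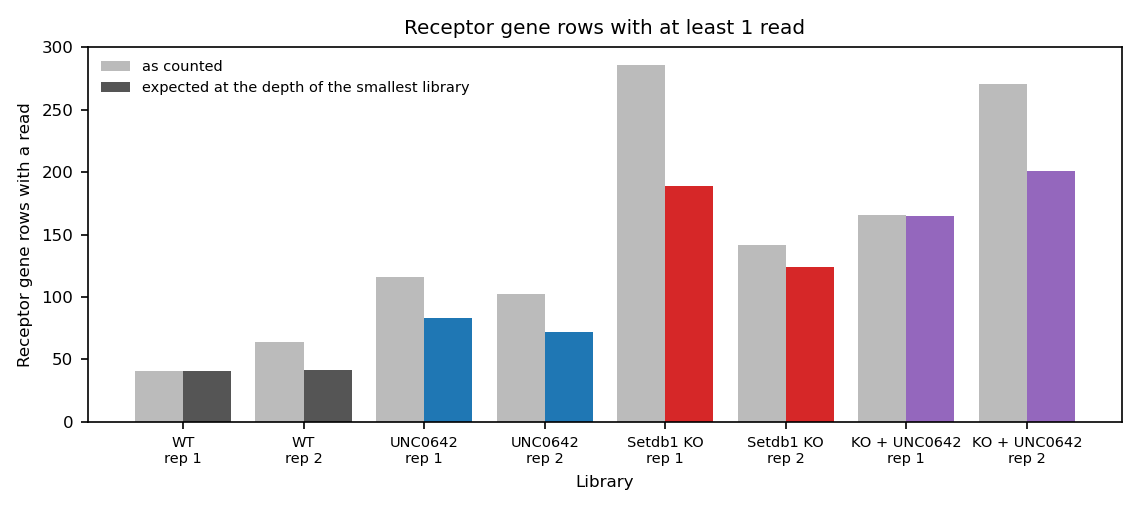
Number of the 1475 receptor gene rows with at least 1 read (vertical axis, from 0) in each of the 8 libraries (horizontal axis); grey bars are the counts as deposited and coloured bars the number expected at the depth of the smallest library, 11702590 counts. At equal depth the WT libraries hold 41.0 and 41.4 rows and the 4 Setdb1 KO libraries between 124 and 201.

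The summed level of the 66 genes, which their rule favours and which is given as a description, followed the same order, and most of it belonged to a pair of genes. Their summed level was 38.9 and 34.9 CPM in WT mESCs, 116 and 83.7 after UNC0642, 689 and 312 in KO mESCs and 1353 and 638 in the combined condition. Olfr613 and Olfr856-ps1 made up between 69.1% and 91.2% of these reads in each library. Without them the other 64 genes summed to 12.0 and 8.91 CPM in WT mESCs, 25.0 and 17.5 after UNC0642, 77.6 and 82.4 in KO mESCs and 119 and 105 CPM in the combined condition, and by this sum none of the 4 conditions overlapped with another. By family, the Olfr genes other than this pair were at 3.05 and 1.70 CPM in WT mESCs, 4.51 and 4.61 after UNC0642, 37.7 and 55.6 in KO mESCs and 52.3 and 51.0 in the combined condition. The Vmn1r genes went from 3.75 and 3.21 CPM in WT mESCs to 33.3 and 23.6 CPM in the combined condition, most of it from Vmn1r58. Without Vmn1r58 they went from 0.610 and 0.361 to 6.64 and 8.75 CPM. Between the same conditions the Vmn2r genes went from 5.23 and 4.01 to 31.4 and 25.9 CPM, and the Taar genes from 0 and 0 to 1.87 and 4.05 CPM.

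**Figure D2:**
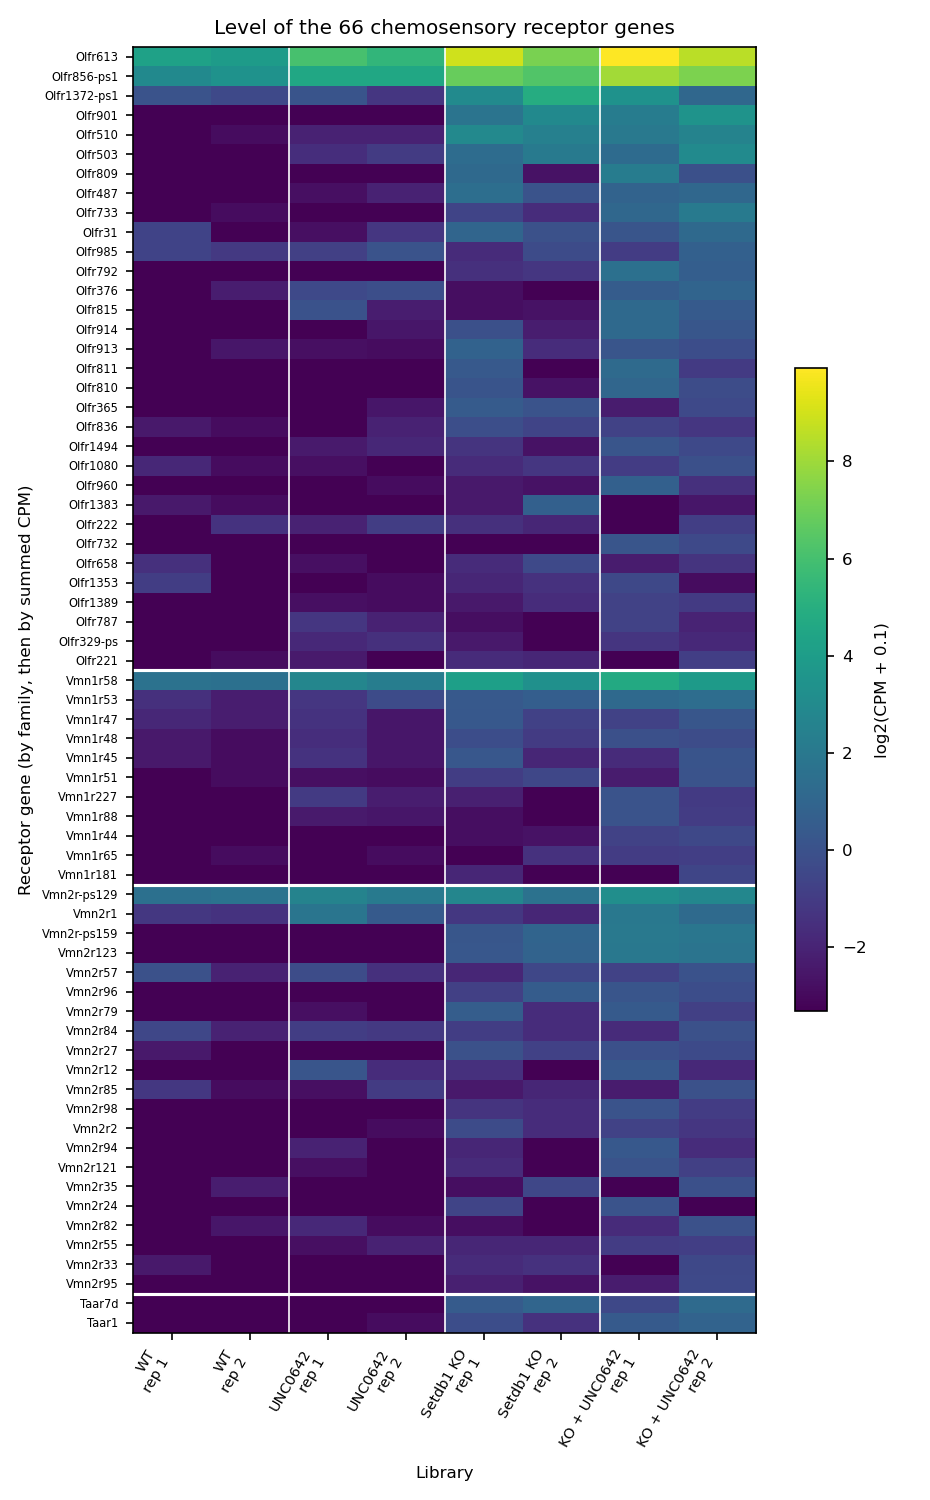
Level of each of the 66 receptor genes (vertical axis, grouped by family with white lines between Olfr, Vmn1r, Vmn2r and Taar) in each of the 8 libraries (horizontal axis), as log2(CPM + 0.1) on the colour scale, where the darkest colour is no read. Most rows are dark in the WT libraries, where 34 genes had no read, and 54 of 66 had their highest mean level in the combined condition.

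Most of the 66 genes had few or no reads in WT mESCs. No read was found in either WT library for 34 of them, and 51 had 3 or fewer in both together. A further condition without reads was UNC0642 treatment alone for many: 15 genes had no read in the 4 WT and UNC0642 libraries. A read in both libraries was found for 17 genes in WT mESCs, 32 after UNC0642, 52 in Setdb1 KO mESCs and 59 in the combined condition. The mean level was highest in the combined condition for 54 genes, in Setdb1 KO mESCs for 11, in UNC0642-treated mESCs for Olfr222 alone, and in WT mESCs for none. Genes without WT reads could reach 20 reads only through the other conditions, so the rule of the list favours this order. The counts in this paragraph are therefore a description only. Only 4 genes, Olfr613, Olfr856-ps1, Vmn1r58 and Vmn2r-ps129, were above 1 CPM in both WT libraries, against 20 genes in both libraries of the combined condition.

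The list ends at low counts. Just inside it were Vmn1r181 with 20 reads (4 in Setdb1 KO replicate 1 and 16 in UNC0642-treated Setdb1 KO replicate 2), and Olfr787 and Olfr329-ps with 21 reads each. In Olfr787 and Olfr329-ps about as many reads came from UNC0642-treated mESCs (7 and 4, and 4 and 7) as from the combined condition (5 and 4, and 3 and 5). Just outside it were Vmn2r88, Olfr165, Olfr74 and Vmn2r29 with 19 reads each. Vmn2r88 had 2 of its reads after UNC0642, 5 and 3 in KO mESCs and 3 and 6 in the combined condition.

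In Setdb1 KO mESCs 8 receptor genes were called higher than in WT mESCs, 6 of them odorant receptors. Of the 45 genes that passed the filter on low counts, edgeR's quasi-likelihood test called 8 higher after Setdb1 loss and none lower (adjusted p under 0.05), where 0.882% of all 15313 tested genes were called higher. All 8 had a fold change above 10, as 0.731% of all genes did. The 8 were Olfr510, Olfr856-ps1, Olfr503, Olfr901, Olfr613, Olfr487, Vmn2r123 and Vmn2r-ps159. The median log2 fold change over the 45 genes was 4.22, against -0.057 over all tested genes, but genes with reads in the KO libraries alone could pass the filter only through them. Fitted folds of genes without WT reads depend on the prior count: with 19 such genes at their bound, and 2 left out, the median was 2.95. Over all 66 genes, 41 (62.1%) had both Setdb1 KO libraries above both WT libraries, and none had both below. Both Setdb1 KO libraries lay above both WT libraries in 16.0% of the 16564 gene rows with 20 or more reads. The 34 genes without a WT read could not lie below, and the rule of the list favours genes high in another condition. These shares are therefore a description only.

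Olfr613, the odorant receptor gene with the most reads, was at 19.2 and 15.6 CPM in WT mESCs, 67.4 and 42.6 after UNC0642, 495 and 151 in KO mESCs and 967 and 376 in the combined condition. WT, UNC0642 and KO libraries did not overlap, whereas the 2 KO conditions did. The log2 fold change in Setdb1 KO against WT mESCs was 4.22 ± 0.73 (SE, n = 2 per condition; edgeR adjusted p = 0.0314). Olfr856-ps1, an odorant receptor pseudogene, was at 7.75 and 10.5 CPM in WT mESCs, 23.2 and 23.6 after UNC0642, 116 and 78.6 in KO mESCs and 267 and 157 in the combined condition, so that each condition lay apart from the others. Its log2 fold change in Setdb1 KO mESCs was 3.41 ± 0.46 (edgeR adjusted p = 0.0119). Per kilobase of the longest annotated transcript, the mean level of Olfr856-ps1 was the higher of the pair in every condition, at 9.61 against 3.38 CPM per kb in WT mESCs and 103 against 62.9 CPM per kb in Setdb1 KO mESCs.

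The odorant receptor genes Olfr901, Olfr510, Olfr503 and Olfr487 had almost no reads in WT mESCs and were called in Setdb1 KO mESCs. Olfr901 had 0 reads in all 4 WT and UNC0642 libraries, 77 and 139 in KO mESCs and 44 and 303 in the combined condition. Taking 3 reads over both WT libraries as the floor, it was at least 71.3-fold higher in Setdb1 KO mESCs (edgeR adjusted p = 0.0291). It was present in both KO conditions and absent from the reads of the others. Olfr510 had 0 and 1 reads in WT mESCs, 3 and 4 after UNC0642, 176 and 98 in KO mESCs and 38 and 161 in the combined condition, which gave a ratio of 257 for KO to WT (95% exact counting interval 45.7 to 10190; edgeR adjusted p = 0.00997). Olfr503 had no WT read, 5 and 11 after UNC0642, 59 and 79 in KO mESCs and 23 and 220 in the combined condition, which made Setdb1 KO at least 44.7-fold higher than WT (edgeR adjusted p = 0.0291). Olfr487 had no WT read, 1 and 4 after UNC0642, 63 and 17 in KO mESCs and 17 and 55 in the combined condition, at least 23.5-fold higher in Setdb1 KO mESCs (edgeR adjusted p = 0.0482). Olfr510, Olfr503 and Olfr487 lie in the same cluster on chromosome 7, and in all 3 the UNC0642 libraries fell between WT and the KO libraries. Counting intervals and floors cover counting error only.

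Vmn2r-ps159 and Vmn2r123 also had no read in the WT and UNC0642 libraries. Vmn2r-ps159 had 25 and 33 reads in KO mESCs and 39 and 98 in the combined condition. Vmn2r123 had 26 and 32, and 37 and 90. Their counts are nearly equal in every library and Vmn2r123 is the gene that GENCODE M21 does not place, so the 2 rows may hold the same reads and are uncertain as separate genes. Setdb1 KO was at least 18.8-fold and 18.7-fold higher than WT for them, and they were called with edgeR adjusted p of 0.0493 and 0.0492.

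Vmn1r58, Taar7d and Olfr1372-ps1 were called in Setdb1 KO mESCs when the replicate number entered the fit as a block, with which 11 genes passed (2.80% of all genes), and by DESeq2, but not by edgeR without the block. Vmn1r58, the type 1 vomeronasal receptor gene with the most reads, was at 3.14 and 2.85 CPM in WT mESCs, 6.77 and 4.75 after UNC0642, 17.4 and 9.91 in KO mESCs and 26.7 and 14.9 in the combined condition. Its log2 fold change in Setdb1 KO mESCs was 2.19 ± 0.56 (edgeR adjusted p = 0.136, 0.00985 with the block). Taar7d, an olfactory trace amine-associated receptor gene, had no read in the WT and UNC0642 libraries, 30 and 34 in KO mESCs and 6 and 63 in the combined condition (edgeR adjusted p = 0.0910, 0.0256 with the block). Olfr1372-ps1, an odorant receptor pseudogene, was highest in Setdb1 KO mESCs. It was at 0.958 and 0.650 CPM in WT mESCs, 0.987 and 0.324 after UNC0642, 8.09 and 29.7 in KO mESCs, and 10.8 and 2.02 in the combined condition (edgeR adjusted p = 0.0994 for KO against WT, 0.0334 with the block). It overlaps the gene Gm26551 on the same strand, so reads of the 2 may be counted together.

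The Setdb1 KO calls rest on few libraries. Without either WT library no receptor gene was called, without either KO library 4 were, without either library of the combined condition 5 were, and DESeq2 on all 8 libraries called 13 (2.53% of the genes it tested). The KO replicates also differed from each other: 21 genes, Olfr613 among them, were at least 3 times higher in CPM in replicate 1 than in replicate 2, and 7 were at least 3 times higher in replicate 2.

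**Figure D3:**
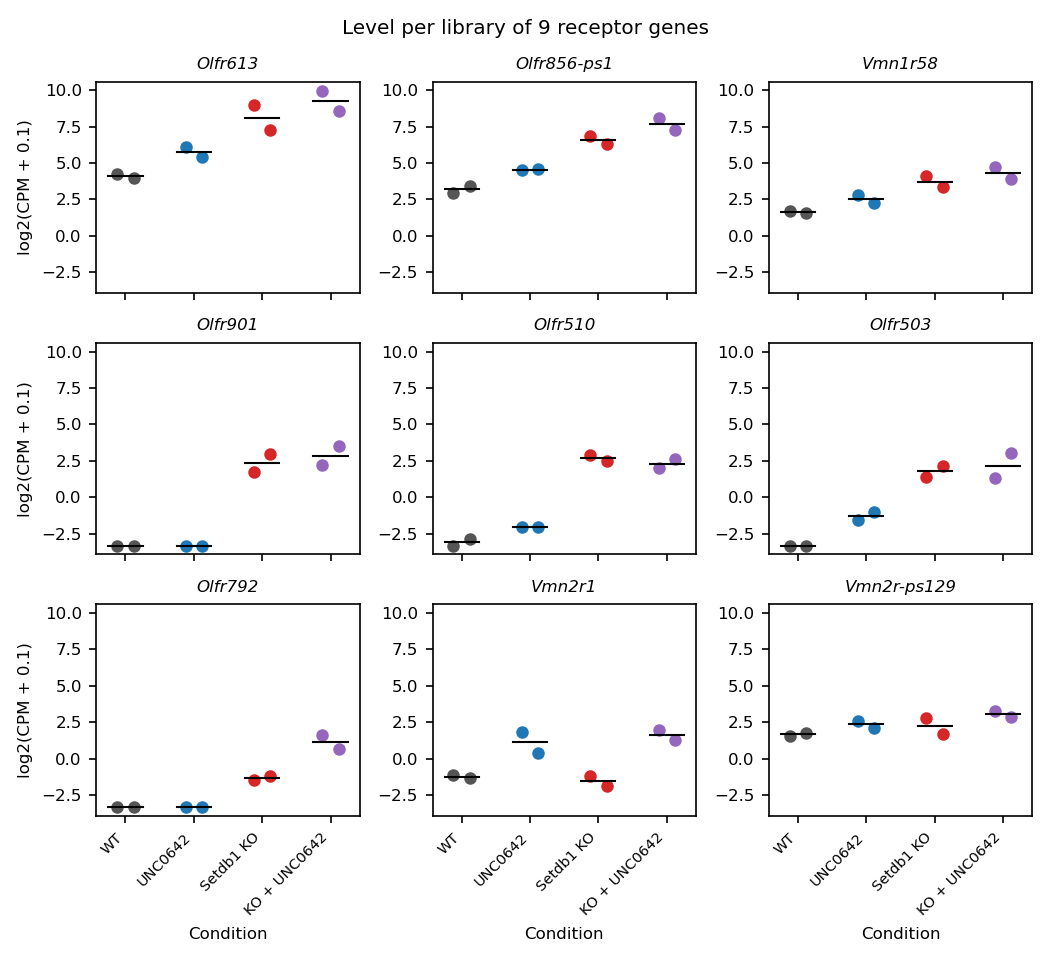
Level of 9 receptor genes as log2(CPM + 0.1) (vertical axis) in the 4 conditions (horizontal axis); points are the 2 libraries of each condition and the line is their mean on this scale. Olfr901 sits at the bottom of the axis, no read, in all 4 WT and UNC0642 libraries, and Vmn2r1 is high in the UNC0642 conditions but not in Setdb1 KO mESCs.

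UNC0642 alone changed no receptor gene by the adjusted test, although a number of genes were higher in both libraries. None of the 45 tested genes was called higher or lower than in WT mESCs by edgeR or by DESeq2 (0% of all genes were called higher by edgeR). At an unadjusted p under 0.05, 9 were higher by edgeR, where 2.99% of all genes were, and 8 of the 66 by DESeq2, where 2.38% were. Over all 66 genes, 19 (28.8%) had both UNC0642 libraries above both WT libraries, as did 13.9% of all gene rows with 20 or more reads. Olfr1383 alone had both below (11.2% of all gene rows), and the 34 genes without a WT read could not lie below. The rule of the list favours genes high in any condition, so these shares are a description only. For Olfr613 the log2 fold change was 1.67 ± 0.66 (edgeR adjusted p = 1) and for Olfr856-ps1 it was 1.36 ± 0.43 (edgeR adjusted p = 0.856).

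A few genes had more reads after UNC0642 than after Setdb1 loss. The mean level was higher in UNC0642-treated than in Setdb1 KO mESCs for 15 of the 66 genes. Vmn2r1, of the Vmn2r subfamily that is co-expressed with other Vmn2r receptors, was at 0.348 and 0.289 CPM in WT mESCs, 3.39 and 1.22 after UNC0642, 0.339 and 0.165 in KO mESCs and 3.84 and 2.28 in the combined condition. Both conditions with UNC0642 lay above both conditions without it, whether or not Setdb1 was deleted. The log2 fold change was 2.85 ± 0.83 for UNC0642 against WT (edgeR adjusted p = 0.692, 0.181 with the block) and 3.54 ± 0.84 for UNC0642-treated against untreated Setdb1 KO mESCs (edgeR adjusted p = 0.567, 0.0809 with the block, 0.0239 by DESeq2). Olfr376 and Olfr815, which were picked out after their values were seen except that Olfr815 was also called in the combined condition, had a like order. Olfr376 had 0 and 3 reads in WT mESCs, 14 and 22 after UNC0642, 1 and 0 in KO mESCs and 13 and 49 in the combined condition. Olfr815 had no WT read, 19 and 3 after UNC0642, 1 and 1 in KO mESCs and 21 and 34 in the combined condition, at least 22.4-fold above WT (edgeR adjusted p = 0.0480). In both genes the KO libraries were at or near 0 and the combined condition lay above all other libraries. For Olfr815 27.1% of the 100-base words in its transcripts also occur in the neighbouring gene Olfr814.

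**Figure D4:**
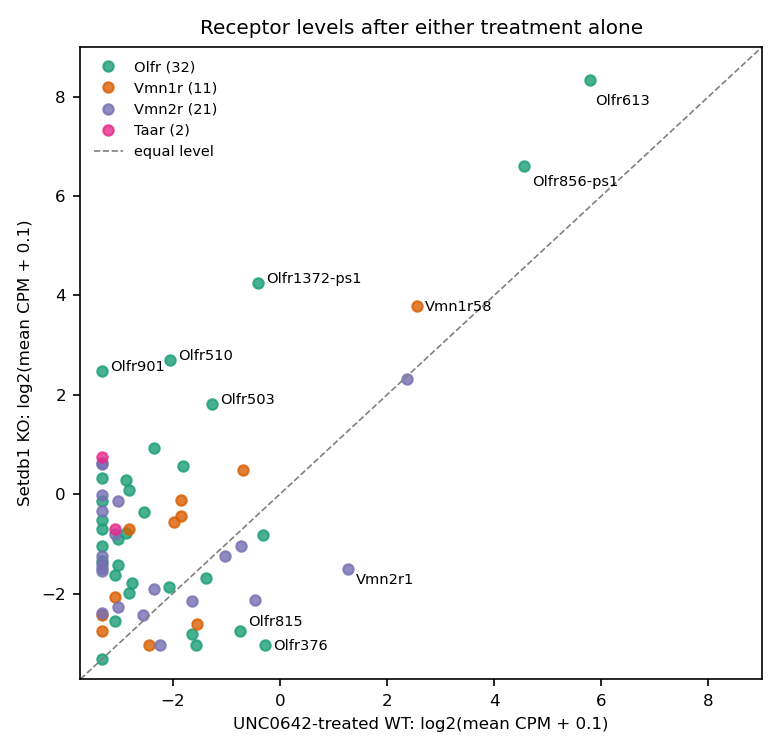
Mean level of each of the 66 receptor genes in UNC0642-treated WT mESCs (horizontal axis) against Setdb1 KO mESCs (vertical axis), both as log2(CPM + 0.1) of the mean of 2 libraries, coloured by family; the dashed line marks equal levels. Of the 66 genes, 15 lie below the line, with Vmn2r1 and Olfr376 the farthest from it, and Olfr901 lies at no read on the horizontal axis.

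In the combined condition 15 receptor genes were called higher than in WT mESCs, and all 8 called in Setdb1 KO mESCs were among them. The comparison shares its WT libraries with the others. edgeR called 15 of the 45 tested genes higher than in WT mESCs and none lower, where 3.08% of all genes were called higher, and 14 had a fold change above 10 (2.61% of all genes). With the replicate number as a block 29 were called, all 15 included, where 8.09% of all genes were, and DESeq2 called 24 (5.15% of the genes it tested). The median log2 fold change over the 45 genes was 6.09, against -0.061 over all tested genes, and 3.71 with the 21 genes without WT reads at their bound. Those 21 genes could pass the filter only through libraries of other conditions, so a positive median is favoured in advance. Over all 66 genes, 53 (80.3%) had both libraries of the combined condition above both WT libraries and none had both below. Of all gene rows, 20.5% had both above. The rule of the list favours this direction, and the 34 genes without a WT read could not lie below, so the share is a description only. Without WT replicate 1 no gene was called, without WT replicate 2 it was 1 gene, and without replicate 2 of the combined condition 8 were.

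The 7 genes that came in addition were Olfr733, Olfr792, Olfr815, Vmn1r58, Vmn1r53, Taar1 and Taar7d. Olfr733, an odorant receptor gene, had 0 and 1 reads in WT mESCs, 0 and 0 after UNC0642, 13 and 4 in KO mESCs and 20 and 118 in the combined condition, a ratio of 147 to WT (95% exact counting interval 25.9 to 5842; edgeR adjusted p = 0.0223). Olfr792 had no read in the WT and UNC0642 libraries, 6 and 6 in KO mESCs and 28 and 40 in the combined condition, at least 28.6-fold above WT (edgeR adjusted p = 0.0262). For both genes the combined condition lay above Setdb1 KO alone in both libraries. Taar1, a trace amine receptor known from the brain, had 0 and 0, 0 and 1, 18 and 5, and 12 and 47 reads in the 4 conditions in the same order, at least 19.4-fold above WT (edgeR adjusted p = 0.0337). Taar7d was at least 19.2-fold above WT (edgeR adjusted p = 0.0443), with 6 and 63 reads in its 2 libraries. Both Taar genes lie in the single Taar cluster on chromosome 10, where 6 of 15 rows had no read. Vmn1r53, a type 1 vomeronasal receptor gene, was at 0.261 and 0.108 CPM in WT mESCs, 0.329 and 0.720 after UNC0642, 1.19 and 1.43 in KO mESCs and 2.18 and 2.57 CPM in the combined condition, with no overlap between conditions and a log2 fold change of 3.77 ± 0.86 (edgeR adjusted p = 0.0438). It overlaps Gm20426 on the same strand. Vmn1r58 had a log2 fold change of 2.79 ± 0.57 (edgeR adjusted p = 0.0279).

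Of the 8 genes called in Setdb1 KO mESCs, Olfr510 had the higher mean level there and the others had it in the combined condition, the libraries of the 2 conditions overlapping for most. Olfr613 had a log2 fold change of 5.28 ± 0.77 against WT mESCs (edgeR adjusted p = 0.00777) and Olfr856-ps1 of 4.54 ± 0.49 (edgeR adjusted p = 0.00322). Olfr901 was at least 103-fold above WT (edgeR adjusted p = 0.0111) and Olfr503 at least 68.4-fold above WT (edgeR adjusted p = 0.0102). Vmn2r-ps159 was at least 49.98-fold and Olfr487 at least 24.7-fold above WT, and the ratio for Olfr510 was 212 (95% exact counting interval 37.6 to 8406). Some named genes were not called by edgeR without the block. Vmn2r-ps129, a vomeronasal receptor pseudogene, was at 2.87 and 3.21 CPM in WT mESCs, 5.92 and 4.25 after UNC0642, 6.73 and 3.08 in KO mESCs and 9.34 and 6.99 CPM in the combined condition (log2 fold change 1.42 ± 0.59, edgeR adjusted p = 0.241). Of its 100-base words 74.6% also occur in another gene, so reads at this row are uncertain. Vmn1r47 had 2 and 3 reads in WT mESCs, 6 and 2 after UNC0642, 27 and 9 in KO mESCs and 5 and 29 in the combined condition (edgeR adjusted p = 0.236). Vmn2r1 reached a log2 fold change of 3.25 ± 0.84 (edgeR adjusted p = 0.0666, 0.00977 with the block, 0.00829 by DESeq2).

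UNC0642-treated against untreated Setdb1 KO mESCs gave no call that passed the adjusted test in edgeR (0% of all genes were called higher). DESeq2 called Vmn2r1 alone, and 0.576% of the genes it tested. At an unadjusted p under 0.05, 9 of the 66 genes were higher by DESeq2 (2.39% of all genes) and 7 of 45 by edgeR (2.81% of all genes), the latter Olfr376, Olfr732, Olfr733, Olfr792, Olfr815, Olfr856-ps1 and Vmn2r1. Over all 66 genes, 28 (42.4%) had both UNC0642-treated KO libraries above both KO libraries, against 12.7% of all gene rows, and Olfr365, Olfr836 and Olfr1383 had both below, against 13.9% of all gene rows. The rule of the list favours genes high in any condition, and 54 of the 66 had their highest mean level in the combined condition. These shares are therefore a description only. Olfr732, next to Olfr733 on chromosome 14 and picked out after its values were seen, had reads in the combined condition only, 10 and 18. For Olfr856-ps1 the log2 fold change was 1.12 ± 0.42 (edgeR adjusted p = 0.928) and for Olfr613 it was 1.05 ± 0.65 (edgeR adjusted p = 1.00).

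For the combined condition against UNC0642 treatment alone, edgeR called 7 receptor genes higher, where 0.869% of all genes were called higher. The 7 were Olfr856-ps1, Olfr510, Olfr901, Olfr733, Olfr792, Vmn2r-ps159 and Vmn2r123. With the block 17 were called (2.91% of all genes) and by DESeq2 18 (2.30% of the genes it tested). Without either UNC0642 library none were, and without replicate 1 or 2 of the combined condition 2 or 3 were. Olfr856-ps1 had a log2 fold change of 3.18 ± 0.45 (edgeR adjusted p = 0.0156) and Olfr510 of 5.06 ± 0.75 (edgeR adjusted p = 0.0185). Olfr733, without a read after UNC0642, was at least 52.5-fold above UNC0642 alone (edgeR adjusted p = 0.0297). Olfr613 was next to the threshold, with a log2 fold change of 3.61 ± 0.71 (edgeR adjusted p = 0.0501, 0.00162 with the block). Further named genes were called with the block and by DESeq2, but not by edgeR without the block: Vmn1r58 (edgeR adjusted p = 0.214, 0.0166 with the block), Olfr487 (0.118 and 0.0435), Olfr503 (0.0904 and 0.00995), Taar1 (0.0865 and 0.0331) and Taar7d (0.0750 and 0.0244). Both combined libraries lay above both UNC0642 libraries for 49 of the 66 genes (74.2%), against 14.9% of all gene rows. The rule of the list favours this direction too, and the 20 genes without an UNC0642 read could not lie below. Whether the effect of UNC0642 differed between WT and Setdb1 KO mESCs was tested by the interaction term, which called no receptor gene by edgeR or DESeq2, and 0% of all genes higher by edgeR. At an unadjusted p under 0.05, 1 of the 45 genes, Olfr503, was lower in edgeR, where 0.594% of all genes were. In DESeq2 1 of the 66 was higher (0.188% of all genes) and 1 was lower (0.429%). Olfr503 had no WT read, so its fold against WT is not measured and no difference between the backgrounds is read from it.

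The 66 genes were spread over many clusters. With GENCODE M21 on GRCm38, 65 of them could be placed, on 13 chromosomes, with 14 on chromosome 7, 12 on chromosome 10, 8 on chromosome 6 and 7 on chromosome 9. When rows at most 1000000 bp apart were joined, the receptor rows formed 69 clusters, of which 28 held at least 1 of the genes and 15 held 2 or more. GENCODE lists 62 of the 65 as protein-coding genes and 3 as pseudogenes. The nearest gene that is no receptor and had 20 or more reads lay within 50000 bp for 10 of the 65, and its median distance was 192073 bp. For Olfr613 (chr7:103548074-103555506, + strand) it was Usp17lc at 128194 bp. For Olfr856-ps1 (chr9:19657057-19658647, - strand) it was Zfp317 at 7326 bp. Other genes described above lie at chr9:38429455-38432682 (Olfr901, + strand), chr7:5401681-5413396 (Vmn1r58, - strand), chr3:64081547-64109484 (Vmn2r1, + strand), chr14:50295891-50301522 (Olfr733, - strand), chr10:23920356-23921469 (Taar1, + strand) and chr10:24027222-24028298 (Taar7d, + strand).

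The chromosome 7 cluster of Olfr487, Olfr503 and Olfr510 (chr7:106675005-108894420) holds 66 receptor rows, 47 of them without a read. Over the whole cluster there were 1 and 2 reads in WT mESCs, 12 and 20 after UNC0642, 309 and 211 in KO mESCs and 82 and 457 in the combined condition. Reads were thus found at few places of a large cluster. Rows without a read are not particular to it, as 70.1% of all Olfr rows and 66.4% of all receptor rows had none.

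The cluster with the most of these genes lies on chromosome 10 (chr10:128989431-130497396) and holds 60 receptor rows, 31 of them without a read. Over all receptor rows 66.4% had no read. Its 8 genes did not behave alike. Olfr809, Olfr810 and Olfr811, adjacent genes picked out after their values were seen, had no read in the WT and UNC0642 libraries, 53 and 1, 23 and 1, and 28 and 0 reads in the Setdb1 KO libraries, and 45 and 23, 19 and 20, and 22 and 10 in the combined condition. All 3 were thus present in KO replicate 1 and nearly absent from KO replicate 2. Olfr792 and Olfr815, in the same cluster, were highest in the combined condition, and Vmn2r84 and Vmn2r85 had mean levels of 0.377 and 0.192 CPM already in WT mESCs.

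**Figure D5:**
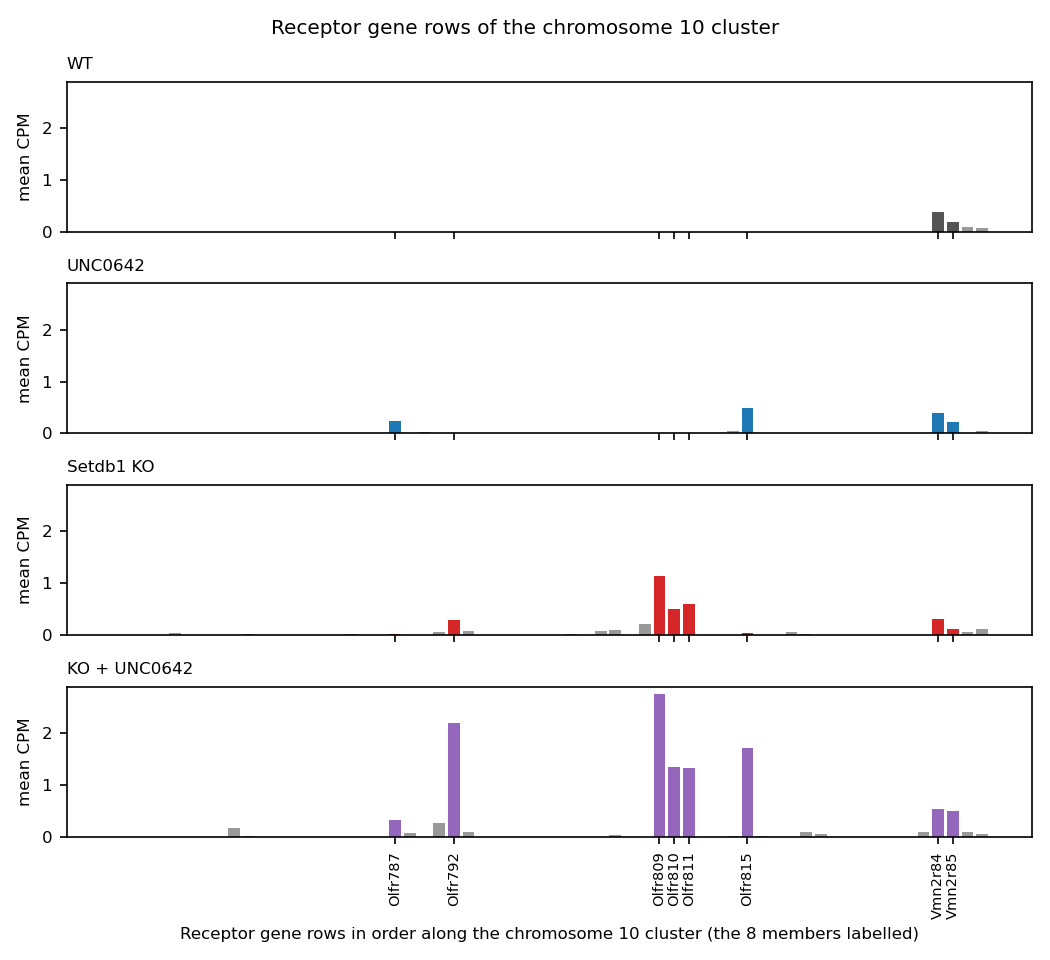
Mean CPM of 2 libraries (vertical axis, same scale in each panel) for the 60 receptor gene rows of the chromosome 10 cluster in their order along the chromosome (horizontal axis), with 1 panel per condition; coloured bars are the 8 genes with 20 or more reads and grey bars the other rows. Olfr809, Olfr810 and Olfr811 form a block that is seen in the Setdb1 KO and combined conditions, and most other rows stay at 0.

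Across the 8 libraries, log2(CPM + 0.1) of neighbouring genes followed each other in some places. Pearson's r was 0.994 for Olfr809 and Olfr810, 0.979 for Olfr810 and Olfr811, 0.936 for Vmn1r47 and Vmn1r48, and 0.929 for Olfr913 and Olfr914. It was 0.103 for Vmn2r1 and Vmn2r2. These values describe 8 libraries that share 4 conditions and no test was made of them. Of the 100-base words of Vmn1r48, 43.2% also occur in Vmn1r47, so this pair may share reads.

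How far a row can be trusted also depends on its sequence. Of the 65 genes with a GENCODE transcript, 51 shared at least 1 word of 100 bases with the transcripts of another gene, and 4 shared more than 50% of their words. For Olfr613 the share was 1.39%, and for Olfr856-ps1, Olfr901, Olfr510 and Taar1 it was 0. The gene models also overlapped another annotated gene for 7 of the 65.

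Start regions of these genes by RefSeq were poor in CpG and in G and C. RefSeq (GRCm38.p6) gave a window from 250 bases before to 50 after the start for 52 of the 66 genes. The median window held 1 CpG and 37.2% G+C, as against 1 and 35.7% over 1237 receptor rows and 7 and 52.7% over all 27025 promoters. The letters TATAAA occurred on either strand in 36.5% of the windows of the 52 genes, in 39.9% of those of all receptor rows and in 14.2% of all promoters. TAATTA, the core of many homeodomain sites, occurred in 11.5%, 17.0% and 5.31%. In 35 of the 52 windows the annotated start is the start codon itself, so that the true first exon may lie farther away, and a match is only a description of these letters. Windows of 5 genes with different patterns over the conditions are shown 5′ to 3′, namely Olfr613 (reads in all conditions), Olfr901 (no WT or UNC0642 read), Olfr503 (reads with UNC0642 too), Olfr792 (highest in the combined condition) and Taar7d (a trace amine-associated receptor). The GENCODE models of Olfr613, Olfr901 and Olfr792 begin farther upstream, at chr7:103548074, chr9:38429455 and chr10:129539162. Their windows thus lie inside these models and are not start regions by that annotation. Each window gives the 250 bases before the RefSeq start and the start codon where the RefSeq model begins with it. Either motif, read on either strand, and that start codon are in capitals.
Olfr613 (chr7:103550118-103550367, + strand): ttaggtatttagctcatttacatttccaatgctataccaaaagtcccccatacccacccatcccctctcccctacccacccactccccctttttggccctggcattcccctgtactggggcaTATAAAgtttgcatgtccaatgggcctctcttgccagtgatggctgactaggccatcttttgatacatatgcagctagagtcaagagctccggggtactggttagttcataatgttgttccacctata
Olfr901 (chr9:38430034-38430286, + strand): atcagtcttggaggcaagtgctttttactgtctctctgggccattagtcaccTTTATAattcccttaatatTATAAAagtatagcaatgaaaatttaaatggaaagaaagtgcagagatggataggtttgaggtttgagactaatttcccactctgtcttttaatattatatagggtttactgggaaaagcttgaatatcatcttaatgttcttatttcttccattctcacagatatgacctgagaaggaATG
Olfr503 (chr7:108544277-108544529, + strand): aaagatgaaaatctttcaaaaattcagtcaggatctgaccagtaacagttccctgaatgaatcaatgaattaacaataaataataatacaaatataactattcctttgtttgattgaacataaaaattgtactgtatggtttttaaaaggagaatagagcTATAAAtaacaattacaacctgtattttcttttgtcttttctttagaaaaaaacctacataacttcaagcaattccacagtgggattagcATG
Olfr792 (chr10:129540289-129540541, + strand): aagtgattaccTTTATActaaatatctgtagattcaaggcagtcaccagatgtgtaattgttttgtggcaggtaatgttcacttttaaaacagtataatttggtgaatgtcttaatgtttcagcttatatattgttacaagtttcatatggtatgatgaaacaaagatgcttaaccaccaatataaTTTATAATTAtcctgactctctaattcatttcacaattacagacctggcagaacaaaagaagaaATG
Taar7d (chr10:24026972-24027224, + strand): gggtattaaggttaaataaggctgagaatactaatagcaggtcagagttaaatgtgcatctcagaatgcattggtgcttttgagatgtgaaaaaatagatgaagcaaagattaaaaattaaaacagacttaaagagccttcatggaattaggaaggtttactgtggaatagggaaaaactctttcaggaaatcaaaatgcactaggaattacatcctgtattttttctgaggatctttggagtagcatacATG

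Olfr613 and Olfr503 each hold TATAAA once, Olfr901 and Olfr792 2 times counting both strands, and Taar7d not at all. Olfr792 also holds TAATTA once, overlapping TATAAA on the other strand. Among the 5, only Olfr613 holds a CpG (1), and its G+C content of 48.4% is above the 27.6% to 34.4% of the others.

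Few genes of the receptors' signalling machinery were called. The list of 35 genes holds the olfactory G protein, cyclase and channel, receptor chaperones, vomeronasal signalling genes and regulators of olfactory and vomeronasal neurons. Of the 22 that passed the filter, 1 was lower and none higher in UNC0642-treated Setdb1 KO than in WT mESCs by edgeR (0.535% of all genes were lower), and none was called in the other comparisons. With the block 1 was higher and 4 were lower, where 8.09% of all genes were higher and 7.63% were lower. Pde4a was also lower with the block in edgeR in Setdb1 KO mESCs (adjusted p = 0.0453) and in the combined condition against UNC0642 alone (adjusted p = 0.00996). The median log2 fold change over the 22 was -0.25. The gene that fell was Pde4a, a cAMP phosphodiesterase, with 255 and 748 reads in WT mESCs, 176 and 282 after UNC0642, 203 and 207 in KO mESCs and 23 and 63 in the combined condition (log2 fold change -3.39 ± 0.50, edgeR adjusted p = 0.00808). The call was lost without WT replicate 1, WT replicate 2 or replicate 2 of the combined condition. Ano2, the calcium-activated chloride channel of olfactory cilia, was called with the block and by DESeq2, with no read in WT mESCs, 9 and 29 after UNC0642, 0 and 5 in KO mESCs and 5 and 72 in the combined condition (edgeR adjusted p = 0.0860, 0.0144 with the block, 0.00491 by DESeq2). Lhx2, Reep1 and Tfap2e were lower only with the block (adjusted p = 0.0292, 0.0383 and 0.0486). Among 41 rows of other chemoreceptors (Tas1r, Tas2r and Fpr-rs), 30 had no read and only Tas1r1 had 20 or more, and it was called in no comparison.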

How the data were processed

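Poly(A) RNA-seq libraries (KAPA mRNA HyperPrep) of mESCs, 8 in all, were analysed. Per the labels and the study's methods, the authors trimmed reads with Trim Galore 0.3.7, aligned them to GRCm38 with TopHat2 and counted them with TEtranscripts, which shares multi-mapped reads; what they deposited are whole-number raw counts, for each gene and each subfamily of transposable elements, not normalized. The gene annotation and strand setting are not given in the sources used here. Conditions and replicate numbers came from sample titles.

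Genes and subfamilies were filtered together by filterByExpr (minimum count 10, minimum total 15), leaving 15313 genes and 932 subfamilies. TMM factors and edgeR 4.0.16 (R 4.3.3) quasi-likelihood tests used all 8 libraries with 1 coefficient per condition and Benjamini-Hochberg adjustment over both kinds of feature. SEs were derived from the log2 fold change and its F statistic. CPM are counts per 1e6 TMM-scaled counts. DESeq2 1.42.0, a replicate block, other scalings, no filter and leaving out each library were alternatives. The test was checked on simulated counts. The genes changed there all had higher mean levels than most of these receptor genes, so the check does not cover rows with few reads. Thinned row numbers are hypergeometric expectations, and positions came from GENCODE M21. Python 3.11.15, pandas 2.3.3, scipy 1.17.1 and matplotlib 3.10.9 were used. The study calls the replicates biological, but nothing says that they came from separate cultures, so p-values measure the spread between these libraries, which may be technical.

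Differences between replicates 1 and 2 correlated between all 6 pairs of conditions (r between 0.285 and 0.663 over 15313 genes). The replicate numbers, which come from the sample titles, may therefore pair the samples. The main fit ignores such a pairing, and the fit with the block, given beside it, takes it into account. Over the 45 tested receptor genes r was between -0.079 and 0.532.

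Named genes were the 6 Olfr genes and the 3 Vmn1r, Vmn2r and Taar genes with the most reads, up to 10 called genes per comparison, the rows next to the limit of 20 reads, Setdb1, and called genes of the signalling list; others were picked after their values were seen and are named as such or by a count. The receptor genes, lists and rules were chosen with earlier results of these data known.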

Additional observations from a re-analysis of the deposited data

How the results depend on the processing

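With 2 libraries per condition, counts of calls moved with the processing while directions mostly stayed. For total counts, genes without subfamilies, no filter and the fits without a library, shares over all genes were not computed. The counts at these settings show only how the calls moved. For Setdb1 KO against WT, where 8 receptor genes were called higher, DESeq2 called 13, scaling by total counts 3 (2 with a fold above 10) and genes tested without subfamilies 5 (5 with a fold above 10). For the combined condition against WT the replicate block gave 29 (27 with a fold above 10) and DESeq2 24. Against UNC0642 alone it gave 17 (15 with a fold above 10), DESeq2 18 (16) and total counts 2 (1). Against Setdb1 KO DESeq2 called 1 (1 with a fold above 10). Scaling by total counts moved the median log2 fold change of all genes by -0.168 for the combined condition against WT and by -0.205 against UNC0642. Leaving out 1 library at a time gave 0 to 8 for Setdb1 KO against WT (0 to 8 with a fold above 10), 0 to 14 for the combined condition against WT (0 to 13) and 0 to 7 against UNC0642 (0 to 6); the low values came without a WT or an UNC0642 library. In the signalling list, the block gave 1 lower for Setdb1 KO against WT, 1 higher and 4 lower for the combined condition against WT, and 1 lower against UNC0642; DESeq2 gave 2 higher against WT, 1 lower against Setdb1 KO and 1 lower against UNC0642; no filter gave 2 higher against WT; leaving out 1 library gave 0 to 1 higher and 0 to 1 lower against WT. A limit of 10 or 50 reads would have kept 124 or 37 receptor rows, and at equal depth WT replicate 2 and Setdb1 KO replicate 1 held 41.4 and 188.8 receptor rows with a read. Of the 18 named receptor genes, those whose log2 fold change took both signs when 1 library was left out were, against WT, Olfr1372-ps1 (UNC0642, -1.27 to 0.295), Vmn1r47 (UNC0642, -0.843 to 1.01) and Vmn2r1 (Setdb1 KO, -0.904 to 0.080). For the combined condition against Setdb1 KO they were Olfr901 (-0.21 to 1.28), Olfr503 (-0.47 to 1.24), Olfr487 (-0.48 to 1.01), Taar7d (-1.28 to 0.56) and Vmn1r47 (-0.63 to 0.71), against UNC0642 alone Vmn2r1 (-0.14 to 1.30), and in the interaction 8 genes. None of these was called by edgeR, with the block or by DESeq2. Calls of named genes that the block changed are given with the results. The cause of these shifts was not tested. Depth limits the rows without reads: 3 reads were 0.112 to 0.256 CPM in a library.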
